A study of Homo sapiens with 12 samples.

Results

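Glycolysis and the response to low oxygen were followed through 38 genes among the 20307 of the table. The members were chosen by name: carriers of glucose and lactate, enzymes and regulators of glycolysis, the oxygen sensors and direct targets of the hypoxia-inducible factor HIF-1. RNA was sequenced from 12 libraries in 4 groups of 3, from 2 established human cell lines. THP-1, a monocytic leukaemia line of WT genotype, was given the phorbol ester PMA for 24 h, which turns it towards a macrophage, and then kept for 48 h either with H1299 labelled as overexpressing DCBLD2 ("DCBLD2-exposed") or with H1299 labelled control ("control-exposed"). The design text calls this a co-culture and the sample labels call it supernatant. H1299, a non-small-cell lung carcinoma line, was profiled on its own with the genotype label DCBLD2 overexpression ("labelled DCBLD2") or WT ("labelled control"). No label names an empty construct, a clone or the promoter that drives DCBLD2, and none says whether the replicates of a group were grown apart; the p-values thus rest on the spread of these libraries, which may be technical.

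In glycolysis, cells take up glucose through GLUT carriers, split it to pyruvate in the cytosol and, where pyruvate does not enter the mitochondria, reduce it to lactate, which leaves through monocarboxylate carriers. HIF-1 switches on many of these genes when oxygen is low. Prolyl hydroxylases of the EGLN family mark its alpha subunit for destruction while oxygen is present, so that much of the regulation of HIF-1 lies in the protein and not in the RNA. Macrophages use glycolysis heavily when activated, and carcinoma cells often use it even with oxygen.

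DCBLD2 itself, a transmembrane protein, went against the H1299 labels. It had 104.5, 98.2 and 92.5 TPM (a level scaled for gene length and library depth) in the 3 labelled DCBLD2 libraries, against 247, 148 and 196 TPM in the labelled control libraries (-1.27 ± 0.17 log2, adjusted p = 0.00284, edgeR). Every direction below therefore follows the labels and not a measured excess of DCBLD2. It was also lower in DCBLD2-exposed THP-1, at 6.525, 6.61 and 6.27 TPM, against 11.4, 12.2 and 12.01 TPM in control-exposed THP-1. Libraries held 18606739 to 26787853 estimated reads in THP-1 and 14578887 to 23388187 in H1299. Replicates lay much closer together in THP-1, where the common coefficient of variation was 1.96%, than in H1299, where it was 13.3%, so far smaller changes could be called in THP-1. All 15 myeloid marker genes were detected in every THP-1 library, where their summed level was 7399 to 7432 TPM in the DCBLD2-exposed group and 5381 to 5448 TPM in the control-exposed group. The 16 carcinoma markers summed to 492 to 511 TPM in DCBLD2-exposed and 498 to 522 TPM in control-exposed THP-1. Of the 12 tested there, 3 were called higher and 7 lower, where 34.5% and 33.6% of all genes were. KRT8 and KRT18 were too low to test in THP-1. Of the keratins, KRT8 had 0.657, 0.494 and 0.422 TPM in DCBLD2-exposed against 0.275, 0.480 and 0.0940 TPM in control-exposed THP-1, with KRT8 at 460.3 ± 60.99 TPM in labelled DCBLD2 and 539 ± 36.01 TPM in labelled control H1299. KRT18, at 938 ± 152 TPM in labelled DCBLD2 and 1379 ± 49.5 TPM in labelled control H1299 (SD, n = 3 each), had 1.63, 0.879 and 0.533 TPM in DCBLD2-exposed THP-1, against 0.164, 0.250 and 0.198 TPM in control-exposed THP-1. The carcinoma list summed to 2847 to 3480 TPM in labelled DCBLD2 and 3590 to 3910 TPM in labelled control H1299, and the myeloid list, nearly all of it CD68, to 199 to 202 TPM in labelled DCBLD2 and 139 to 142 TPM in labelled control H1299. In THP-1, 12 myeloid markers were called higher and 3 lower; the lymphocyte and endothelial list summed to 75.4 to 78.8 TPM in DCBLD2-exposed and 163 to 167 TPM in control-exposed cells. Most of that was TIE1 (64.5 ± 1.54 TPM in DCBLD2-exposed and 149 ± 1.96 TPM in control-exposed cells), while ROBO4 went the other way (4.01 ± 0.4055 TPM in DCBLD2-exposed and 0.815 ± 0.239 TPM in control-exposed cells) and CD3E, CD2 and MS4A1 were at 0. The fibroblast list summed to 13.2 to 14.2 TPM in DCBLD2-exposed and 24.7 to 26.2 TPM in control-exposed cells, mostly PDGFRB (9.23 ± 0.550 TPM in DCBLD2-exposed and 21.8 ± 0.702 TPM in control-exposed cells). Mitochondrial transcripts took 2.46% to 2.58% of counts in DCBLD2-exposed and 3.48% to 3.51% in control-exposed THP-1, and ribosomal protein genes 5.14% to 5.42% in DCBLD2-exposed and 3.73% to 3.75% in control-exposed THP-1. The part of these shifts in the results was not tested. In bulk RNA, fewer cells of a kind and less RNA per cell cannot be told apart.

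Most of the members moved in THP-1, in both directions and by small amounts. Of 36 members tested, 13 were higher (36.1%) and 16 lower (44.4%) in DCBLD2-exposed cells at an adjusted p under 0.05, where 34.5% and 33.6% of all 13120 genes tested were higher and lower. The median log2 fold change of the members was -0.0088, beside 0.00046 over all genes. The changes were at least 1.5-fold in 2 members that rose, PFKM and ANKRD37, and 3 that fell, P4HA2, EGLN3 and SLC16A1. Of all genes tested in THP-1, 21.2% were called with a change of that size. In H1299, 4 members were higher (11.8%) and 2 lower (5.88%) of 34 tested, where 10.3% and 10.6% of all 12773 genes were, and the members' median was 0.04 beside 0.0047. Apart from the larger share that fell in THP-1 and the smaller share that fell in H1299, the members' shares lay near those of all genes. Whether these 2 shares depart from those of all genes was not tested. Together the members made up 1.12% to 1.15% of TPM in DCBLD2-exposed and 1.01% to 1.02% in control-exposed THP-1, and 2.78% to 2.89% in labelled DCBLD2 and 2.89% to 3.20% in labelled control H1299. With the common dispersion of H1299 used for THP-1, 14 members were called there, 5 higher and 9 lower, with 2358 of all genes higher and 2173 lower. With all 12 libraries in 1 fit, 8 members were higher and 12 lower in THP-1, with 2978 of all genes higher and 3186 lower. Scaling THP-1 by library size alone gave 18 members higher and 14 lower, with 5221 of all genes higher and 3759 lower. CA9 and CA12, carbonic anhydrases of which the first is a classic HIF-1 target, were too low to test in either line: CA9 had 0 TPM in every THP-1 and labelled control H1299 library and at most 0.076 TPM in labelled DCBLD2 H1299, and CA12 was at most 0.031 TPM in any library.

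**Figure D1:**
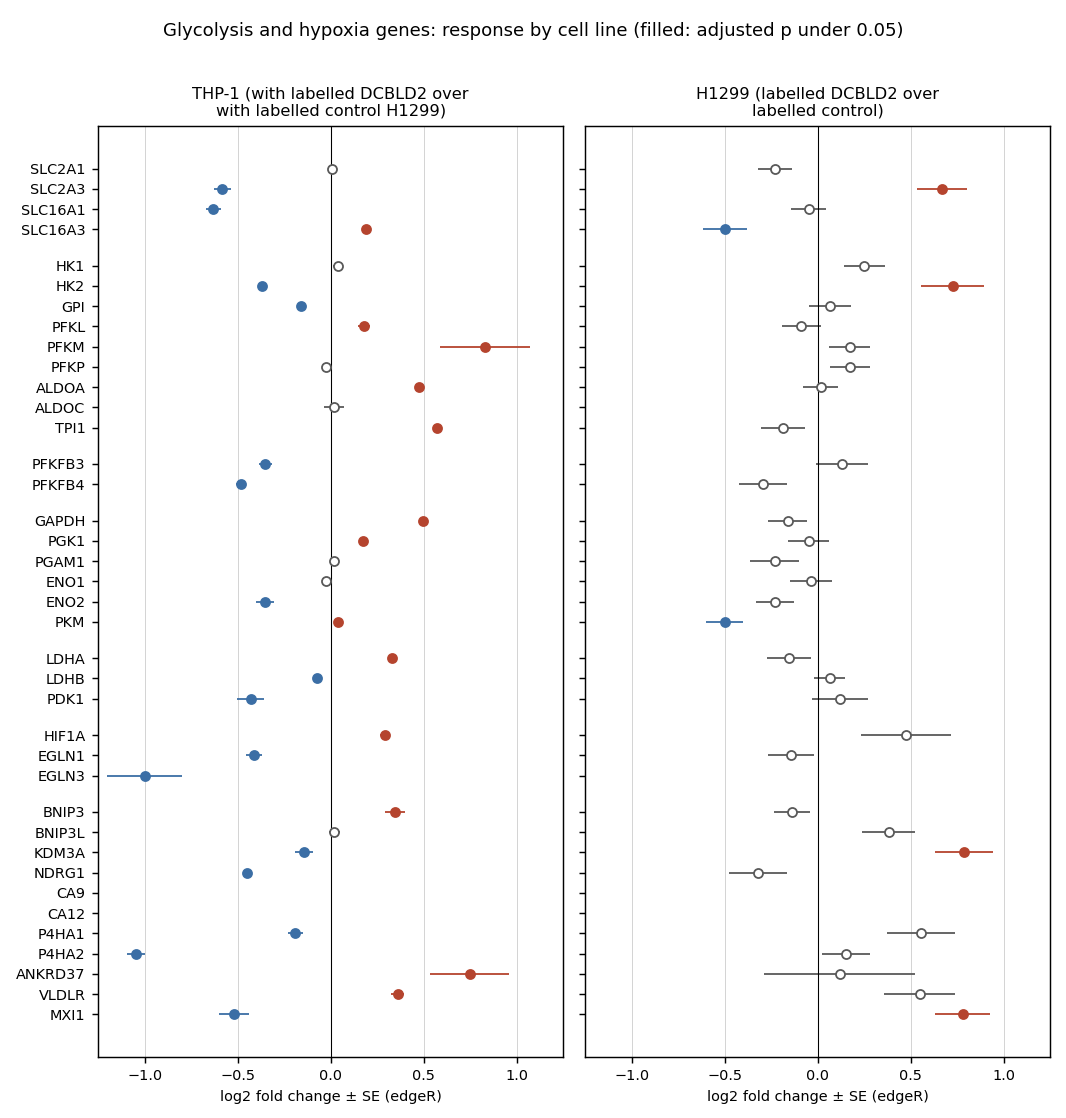
Log2 fold change ± SE (x axis) of each member (y axis, in role groups) in THP-1 (left: DCBLD2-exposed over control-exposed) and H1299 (right: labelled DCBLD2 over labelled control), from edgeR with 3 libraries a group; red and blue filled points were called higher and lower, open grey points were not called, and members without a point were not tested. The 6 members called in H1299 lie on the other side of 0 in THP-1.

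All 6 members called in H1299 were called in the opposite direction in THP-1. SLC2A3, HK2, KDM3A and MXI1 rose in H1299 and fell in THP-1, while SLC16A3 and PKM fell in H1299 and rose in THP-1, although the PKM rise turned to -0.0016 with limma on log2(TPM + 1). Of the 6 THP-1 calls, those of SLC2A3 and MXI1 held under every alternative. HK2 missed the threshold with the dispersion of H1299 (adjusted p = 0.0549), SLC16A3 with that (0.365) and with all 12 libraries in 1 fit (0.0942), and KDM3A and PKM under more settings, given with their values below. The comparisons share no library. Over all genes, 1714 were called in both lines and 51.3% of these went opposite ways, so opposite calls were as common as like ones in the table at large. The difference between the responses, tested as an interaction over all 12 libraries, was called for 18 of 36 members, 9 higher and 9 lower in THP-1 than in H1299 (25.0% each), where 19.3% and 19.5% of 14244 genes were higher and lower; such differences are given as THP-1 minus H1299. Scaling by library size alone made this 12 higher and 9 lower members, with 3379 of all genes higher and 2083 lower in place of 2743 and 2775. The 36 members tested include ALDOC and EGLN3, which were too low to test within H1299 and passed the filter through THP-1. ALDOC is among the 9 higher, and its call was lost under 12 alternatives. The 18 called include all 6 members called in H1299, which adds no separate support. All 879 genes called in opposite directions in both lines were called in this test too. Without labelled DCBLD2 replicate 2, 0 of the 6 passed in H1299, with adjusted p-values of 0.0544 to 0.102, while the log2 fold changes stayed close to those of the full fit: 0.58 for SLC2A3, 0.63 for HK2, 0.68 for KDM3A, 0.68 for MXI1, -0.43 for SLC16A3 and -0.48 for PKM. By edgeR, 514 genes in all were still called without that library. Without labelled control replicate 1, 10 members were called. HK2 and SLC16A3 also lost their calls without labelled DCBLD2 replicate 1, with adjusted p = 0.0584 and 0.0615.

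**Figure D2:**
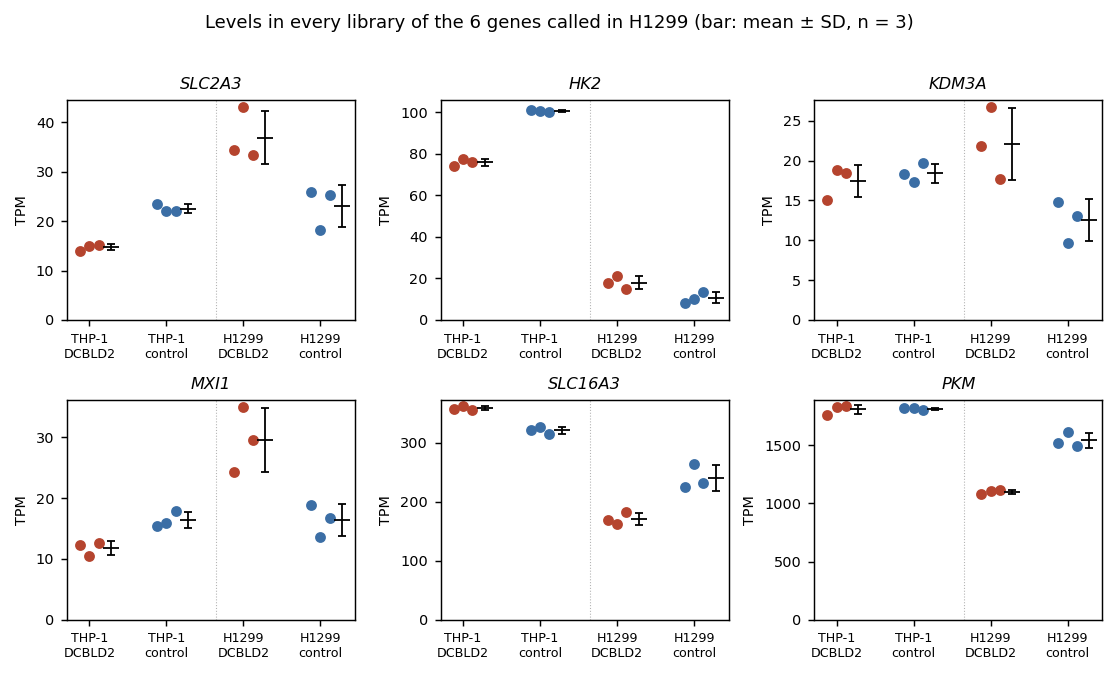
TPM (y axis, from 0) of the 6 members called in H1299, in every library of the 4 groups (x axis; "DCBLD2" and "control" are DCBLD2-exposed and control-exposed for THP-1 and the labelled groups for H1299); points are libraries and the bar beside them is the mean ± SD of 3. SLC2A3 and MXI1 are lower in DCBLD2-exposed than control-exposed THP-1 and higher in labelled DCBLD2 than labelled control H1299, while the THP-1 groups of KDM3A and PKM overlap.

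Promoters are shown for 6 members that carry the main contrasts, because HIF-1 binds a short core sequence in many of its targets: P4HA2 and EGLN1, which fell in THP-1, BNIP3 and GAPDH, which rose there, and HK2 and PKM, which were called in both lines. Each is 250 bases before and 50 bases after a gene start, 5′ to 3′ on the gene's strand, from RefSeq on GRCh38.p14; where a gene has several windows, the first by position is shown. Capitals mark the cores ACGTG and GCGTG on either strand, so that CACGT and CACGC are marked too and overlapping matches run together. The windows are chr5:132227042-132227341 (minus strand), chr10:131981874-131982173 (minus), chr1:231422238-231422537 (minus), chr12:6535014-6535313 (plus), chr2:74833877-74834176 (plus) and chr15:72231141-72231440 (minus).
P4HA2: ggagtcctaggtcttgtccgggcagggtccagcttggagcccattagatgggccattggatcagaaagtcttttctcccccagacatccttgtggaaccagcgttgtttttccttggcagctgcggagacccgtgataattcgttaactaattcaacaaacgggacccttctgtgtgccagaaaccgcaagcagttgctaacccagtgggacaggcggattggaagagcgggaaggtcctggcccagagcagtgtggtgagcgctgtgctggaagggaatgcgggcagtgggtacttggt
BNIP3: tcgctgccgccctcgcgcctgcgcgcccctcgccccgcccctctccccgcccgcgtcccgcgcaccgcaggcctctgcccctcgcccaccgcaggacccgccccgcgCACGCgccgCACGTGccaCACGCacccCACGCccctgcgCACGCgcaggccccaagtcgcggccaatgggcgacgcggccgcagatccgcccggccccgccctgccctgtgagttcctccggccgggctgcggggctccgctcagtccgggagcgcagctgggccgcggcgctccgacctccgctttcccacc
EGLN1: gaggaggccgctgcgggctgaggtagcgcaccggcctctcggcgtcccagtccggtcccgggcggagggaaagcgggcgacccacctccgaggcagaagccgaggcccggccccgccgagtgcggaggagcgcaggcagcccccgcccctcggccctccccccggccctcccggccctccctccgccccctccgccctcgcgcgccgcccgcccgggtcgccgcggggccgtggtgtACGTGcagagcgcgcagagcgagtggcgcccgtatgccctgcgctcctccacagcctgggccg
GAPDH: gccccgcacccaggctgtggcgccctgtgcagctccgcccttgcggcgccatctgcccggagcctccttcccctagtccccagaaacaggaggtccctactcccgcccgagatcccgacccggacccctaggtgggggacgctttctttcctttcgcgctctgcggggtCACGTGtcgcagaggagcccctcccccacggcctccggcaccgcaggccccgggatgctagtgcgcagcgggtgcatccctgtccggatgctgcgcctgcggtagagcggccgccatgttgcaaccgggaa
HK2: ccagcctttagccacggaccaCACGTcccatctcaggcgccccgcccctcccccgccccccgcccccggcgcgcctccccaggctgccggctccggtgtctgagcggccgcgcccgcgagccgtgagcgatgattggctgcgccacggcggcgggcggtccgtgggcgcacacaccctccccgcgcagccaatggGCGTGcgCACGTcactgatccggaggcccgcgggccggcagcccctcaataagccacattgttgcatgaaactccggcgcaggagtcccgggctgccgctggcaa
PKM: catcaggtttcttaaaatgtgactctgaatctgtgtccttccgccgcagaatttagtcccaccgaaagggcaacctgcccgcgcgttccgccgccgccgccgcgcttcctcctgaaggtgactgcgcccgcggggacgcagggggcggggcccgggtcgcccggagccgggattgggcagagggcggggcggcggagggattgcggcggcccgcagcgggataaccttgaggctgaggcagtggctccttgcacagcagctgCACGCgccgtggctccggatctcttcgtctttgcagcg
The BNIP3 window holds 6 matches, HK2 3, GAPDH 2, and EGLN1 and PKM 1 each. Neither core stands in the window of P4HA2, the member with the largest fall in THP-1. Over the 34 members with an entry, 43 of 64 windows (67.2%) held a core, against 48.4% of all 35116 windows of the table. Among members that rose in THP-1, 19 of 28 windows (67.9%) held one, among those that fell 15 of 19 (78.9%), and among those not called 7 of 15 (46.7%). Several windows can belong to the same gene, so windows are not independent. By gene, 13 of 13 members that rose, 11 of 13 that fell and 5 of 6 not called held a core in any window. Of all members with an entry 91.2% did, against 52.4% of all genes with one, and a gene with more windows has more places for a core. The members include HIF-1 targets by choice, and the comparison takes all genes with an entry, whether expressed or not. The shares by window and by gene therefore describe the list and are no result about the response. A match describes the letters only and is not a measured binding site.

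Among the carriers, SLC2A3 and both lactate carriers changed in THP-1. SLC2A3 encodes GLUT3, a glucose carrier of high affinity (ENSG00000059804, chromosome 12, 7919230 to 7936275 on the minus strand; all gene positions are on GRCh38). It had 14.01, 15.02 and 15.2 TPM in DCBLD2-exposed THP-1, against 23.5, 22.1 and 22.05 TPM in control-exposed THP-1, a log2 fold change of -0.58 ± 0.05 (SE; adjusted p = 2.76e-11, edgeR). In H1299 the order was the other way, with 34.5, 43.03 and 33.3 TPM in labelled DCBLD2 against 25.95, 18.3 and 25.3 TPM in labelled control libraries (0.67 ± 0.13, adjusted p = 0.0105). The groups did not overlap in either line, and the responses differed by -1.26 ± 0.15 on the log2 scale (adjusted p = 2.39e-05). SLC16A3, which encodes the lactate exporter MCT4 (ENSG00000141526, chromosome 17, 82228397 to 82261129 on the plus strand), mirrored it. MCT4 transcripts stood at 358, 362.5 and 356 TPM in DCBLD2-exposed against 321, 327.5 and 315 TPM in control-exposed THP-1 (log2 fold change 0.19, adjusted p = 2.07e-09), and at 169.8, 162 and 182 TPM in labelled DCBLD2 against 224, 265 and 231 TPM in labelled control H1299 (-0.50 ± 0.12, adjusted p = 0.0190). All DCBLD2-exposed libraries lay above, and all labelled DCBLD2 H1299 libraries below, their counterparts. SLC16A1, which encodes MCT1, a carrier that moves lactate in either direction, fell to 19.9, 20.8 and 22.3 TPM in DCBLD2-exposed THP-1, against 32.8, 33.1 and 33.6 TPM in control-exposed THP-1 (-0.63 ± 0.04, adjusted p = 3.08e-13). In H1299 its groups overlapped at 36.6 to 42.4 TPM in labelled DCBLD2 and 37.4 to 44.4 TPM in labelled control libraries, and the responses differed (-0.59, adjusted p = 0.0002245). SLC2A1, the broadly used GLUT1, was called in neither line, with log2 fold changes of 0.01 in THP-1 and -0.23 in H1299 (adjusted p = 0.740 and 0.0950). Its responses differed by 0.22 (adjusted p = 0.03955), a call lost with the replicate block (0.116) and when any 1 of 5 THP-1 libraries was left out (adjusted p = 0.0671 to 0.0914).

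In upper glycolysis, ALDOA and TPI1 rose in THP-1 while HK2 fell. TPI1, triosephosphate isomerase (ENSG00000111669, chromosome 12, 6867119 to 6870948 on the plus strand), had 487, 488 and 478 TPM in DCBLD2-exposed against 335, 329 and 338 TPM in control-exposed THP-1 (0.57 ± 0.02, adjusted p = 3.32e-18). ALDOA, the main aldolase here, had 1738, 1804 and 1802 TPM in DCBLD2-exposed against 1304, 1346 and 1300 TPM in control-exposed THP-1 (0.47, adjusted p = 3.82e-19). Both were clear of overlap in THP-1, and in H1299 neither was called, with overlapping groups at 1180 to 1336 TPM in labelled DCBLD2 against 1281 to 1556 TPM in labelled control for TPI1. HK2, the inducible hexokinase that traps glucose in the cell (ENSG00000159399, chromosome 2, 74833981 to 74893359 on the plus strand), fell to 74.1, 77.7 and 75.9 TPM in DCBLD2-exposed THP-1, against 101, 101 and 100.1 TPM in control-exposed THP-1 (-0.37, adjusted p = 2.18e-14). In H1299 it rose to 17.99, 20.9 and 14.8 TPM in labelled DCBLD2, against 8.32, 10.1 and 13.6 TPM in labelled control libraries (0.72 ± 0.17, adjusted p = 0.0183). HK2 therefore separated the groups in both lines, in opposite directions, and its responses differed by -1.10 ± 0.18 (adjusted p = 0.000361). HK1, the constitutive hexokinase, was called in neither line. The muscle phosphofructokinase PFKM had the largest fitted rise of the members in THP-1 (0.83 ± 0.24, adjusted p = 0.00404), yet it was low, at 3.25, 1.26 and 2.41 TPM in DCBLD2-exposed against 1.09, 1.13 and 1.955 TPM in control-exposed THP-1. Its groups overlapped in TPM, and the call was lost with limma on log2(TPM + 1) (adjusted p = 0.123). PFKL, the liver form, was slightly higher (0.18) and GPI, the isomerase after hexokinase, slightly lower (-0.16) in DCBLD2-exposed THP-1. With all 12 libraries in 1 fit the calls of PFKL (adjusted p = 0.0796) and GPI (0.145) were lost. They were also lost with the dispersion of H1299 (0.403 for PFKL and 0.461 for GPI). PFKP and ALDOC were not called in THP-1, and no upper glycolysis member other than HK2 was called in H1299.

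Both regulators of phosphofructokinase fell in THP-1. PFKFB3 and PFKFB4 make and break down fructose 2,6-bisphosphate, the strongest known activator of that step. PFKFB4 had 64.3, 68.3 and 69.4 TPM in DCBLD2-exposed against 91.5, 88.2 and 91.6 TPM in control-exposed THP-1 (-0.48, adjusted p = 2.60e-14). PFKFB3 had 34.5, 38.1 and 40.5 TPM in DCBLD2-exposed against 48.35, 45.8 and 48.7 TPM in control-exposed THP-1, again with no overlap (-0.35, adjusted p = 2.56e-09). With the dispersion of H1299 the PFKFB3 call was lost (adjusted p = 0.0756). Neither regulator was called in H1299. For PFKFB3 the responses differed (-0.49, adjusted p = 0.0127), a call lost without labelled DCBLD2 replicate 1 or 3 (adjusted p = 0.0736 and 0.0671). For PFKFB4 the difference was not called (-0.20 ± 0.10, adjusted p = 0.137).

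In lower glycolysis, GAPDH and PGK1 rose in THP-1 and ENO2 fell. GAPDH, which makes NADH while oxidising the triose (ENSG00000111640, chromosome 12, 6533927 to 6538374 on the plus strand), was the most abundant member in both lines. It had 2913, 3046 and 3047 TPM in DCBLD2-exposed THP-1, against 2176, 2189 and 2188 TPM in control-exposed THP-1 (0.495 ± 0.01, adjusted p = 1.92e-20). In H1299 it had 14603, 15059 and 15858 TPM in labelled DCBLD2 against 16112, 17568 and 16906 TPM in labelled control libraries, a difference that was not called (-0.16 ± 0.11, adjusted p = 0.2895). The responses differed (0.65, adjusted p = 0.000137). PGK1, which makes the first ATP of the pathway, had 329.6, 326 and 329 TPM in DCBLD2-exposed against 296, 305 and 291.5 TPM in control-exposed THP-1 (0.18, adjusted p = 7.43e-09). The PGK1 call was lost with all 12 libraries in 1 fit (adjusted p = 0.0975) and with the dispersion of H1299 (0.41). ENO2, the enolase best known from neurons, was lower, at 27.9, 26.2 and 29.8 TPM in DCBLD2-exposed against 36.1, 34.1 and 31.4 TPM in control-exposed THP-1 (-0.35, adjusted p = 5.84e-07). The ENO2 call was lost with the dispersion of H1299 (adjusted p = 0.0834). ENO1, the main enolase, and PGAM1 were called in neither line. PKM, the pyruvate kinase that makes the last ATP (ENSG00000067225, chromosome 15, 72199029 to 72231822 on the minus strand), fell in H1299 to 1082, 1110 and 1115 TPM in labelled DCBLD2, against 1518, 1618 and 1490 TPM in labelled control libraries (-0.50 ± 0.10, adjusted p = 0.00943). These groups were far apart. In THP-1 PKM had 1765, 1832 and 1835 TPM in DCBLD2-exposed against 1821, 1817 and 1800 TPM in control-exposed libraries, which overlap. The counts gave a rise of only 0.04 on the log2 scale there (adjusted p = 0.0139), lost without control-exposed replicate 3 (adjusted p = 0.0567), with all 12 libraries in 1 fit (0.664), with the dispersion of H1299 (0.874) and with upper-quartile scaling (0.0583). Gene totals do not tell the M1 and M2 splice forms of PKM apart.

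At the fate of pyruvate, LDHA rose and LDHB and PDK1 fell in THP-1. LDHA, the lactate dehydrogenase subunit that favours lactate, had 367, 341 and 351.5 TPM in DCBLD2-exposed against 294, 279.5 and 293 TPM in control-exposed THP-1 (0.33, adjusted p = 1.48e-13). The LDHA call was lost with the dispersion of H1299 (adjusted p = 0.0887). LDHB, whose tetramer favours pyruvate, had 309.5, 301 and 313 TPM in DCBLD2-exposed against 329, 332 and 333.5 TPM in control-exposed THP-1, a small change (-0.07, adjusted p = 0.007155). The LDHB call was lost without DCBLD2-exposed replicate 2 (adjusted p = 0.1) and with library size alone as scaling (-0.0097, adjusted p = 0.715). It was also lost with all 12 libraries in 1 fit (0.264) and with the dispersion of H1299 (0.767). PDK1, the kinase that closes the pyruvate dehydrogenase gate, fell to 7.04, 7.825 and 7.17 TPM in DCBLD2-exposed THP-1, against 10.3, 11.9 and 9.36 TPM in control-exposed THP-1 (-0.43, adjusted p = 1.01e-05). LDHA and PDK1, both known HIF-1 targets, thus changed in opposite directions in the same libraries. None of the 3 was called in H1299, and the responses differed for LDHA (0.47, adjusted p = 0.009815) and for PDK1 (-0.56, adjusted p = 0.0141). The PDK1 difference was lost without labelled DCBLD2 replicate 2 (adjusted p = 0.06).

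Of the oxygen sensing genes, HIF1A rose and both hydroxylases fell in THP-1. HIF1A, the regulated subunit of HIF-1, had 62.4, 65.95 and 66.6 TPM in DCBLD2-exposed against 53.25, 54.95 and 55.3 TPM in control-exposed THP-1 (0.29, adjusted p = 7.07e-10), a call lost with all 12 libraries in 1 fit (0.237) and with the dispersion of H1299 (0.144). EGLN1, which encodes the main hydroxylase PHD2, fell to 18.8, 20.6 and 18.0 TPM in DCBLD2-exposed THP-1, against 28.1, 28.1 and 30.6 TPM in control-exposed THP-1 (-0.41, adjusted p = 4.96e-09). EGLN3, which encodes PHD3 and is itself a HIF-1 target, had 1.53, 1.40 and 1.03 TPM in DCBLD2-exposed against 1.88, 1.87 and 3.29 TPM in control-exposed THP-1 (-0.9995 ± 0.20, adjusted p = 0.000103). It is low in these cells, and control-exposed replicate 3 stood above the other libraries of its group. In H1299 HIF1A had 47.3, 53.8 and 42.9 TPM in labelled DCBLD2 against 48.5, 19.5 and 35.4 TPM in labelled control libraries, where replicate 2 was far below the others. It was not called there (0.48 ± 0.24, adjusted p = 0.179), nor was EGLN1, and no member of this group differed between the responses at an adjusted p under 0.05.

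The other HIF-1 targets split. P4HA2, a subunit of the prolyl hydroxylase that stabilises collagen (ENSG00000072682, chromosome 5, 132191838 to 132295315 on the minus strand), had the largest fall of the members in THP-1. It had 19.97, 22.03 and 18.2 TPM in DCBLD2-exposed against 45.1, 45.8 and 43.55 TPM in control-exposed THP-1 (-1.05 ± 0.05, adjusted p = 4.83e-16), and the groups were far apart. NDRG1, a stress-induced gene, had 239, 241 and 246 TPM in DCBLD2-exposed against 347, 362 and 347 TPM in control-exposed THP-1 (-0.45, adjusted p = 5.17e-17). ANKRD37, an ankyrin repeat gene, went the other way, at 7.35, 5.12 and 6.50 TPM in DCBLD2-exposed against 3.84, 4.51 and 3.30 TPM in control-exposed THP-1 (0.75 ± 0.21, adjusted p = 0.00318), a low gene whose groups did not overlap. VLDLR, a lipoprotein receptor (0.36), and BNIP3, a receptor for the removal of mitochondria (0.34), also rose in THP-1, while P4HA1 (-0.19) fell and BNIP3L was not called. Thus 3 of the 9 tested targets were higher and 5 lower in THP-1, where 34.5% and 33.6% of all genes were higher and lower. With the dispersion of H1299 the THP-1 calls of VLDLR (adjusted p = 0.0682), BNIP3 (0.0918) and P4HA1 (0.374) were lost. That of P4HA1 was also lost with all 12 libraries in 1 fit (0.259). In H1299 only KDM3A and MXI1 were called. MXI1, a repressor that opposes MYC (ENSG00000119950, chromosome 10, 110207605 to 110287365 on the plus strand), had 24.4, 34.9 and 29.5 TPM in labelled DCBLD2 against 18.9, 13.7 and 16.7 TPM in labelled control H1299 (0.78 ± 0.15, adjusted p = 0.00854). In THP-1 it fell to 12.4, 10.55 and 12.7 TPM in DCBLD2-exposed, against 15.4, 15.99 and 17.9 TPM in control-exposed cells (-0.52, adjusted p = 3.22e-06), and the groups were separate in both lines. KDM3A, a demethylase of histone H3 (ENSG00000115548, chromosome 2, 86440647 to 86492716 on the plus strand), had 21.8, 26.7 and 17.7 TPM in labelled DCBLD2 against 14.8, 9.61 and 13.1 TPM in labelled control H1299 (0.79 ± 0.16, adjusted p = 0.0104). In THP-1 KDM3A had 15.1, 18.85 and 18.4 TPM in DCBLD2-exposed against 18.3, 17.3 and 19.7 TPM in control-exposed libraries, which overlap, and its small fall (-0.15, adjusted p = 0.0113) was lost without control-exposed replicate 3 (adjusted p = 0.0794), without DCBLD2-exposed replicate 1 (0.109), with library size alone as scaling (0.136), with all 12 libraries in 1 fit (0.362), with limma on log2(TPM + 1) (0.463) and with the dispersion of H1299 (0.507). Of this group, the difference of responses had the smallest p for P4HA2 (-1.22 ± 0.13, adjusted p = 1.38e-05) and MXI1 (-1.31 ± 0.17, adjusted p = 5.48e-05). P4HA1 (0.56 ± 0.18, adjusted p = 0.0547) and VLDLR (0.55 ± 0.19, adjusted p = 0.0686) missed the threshold in H1299. In H1299 NDRG1 had 14.4, 4.03 and 5.63 TPM in labelled DCBLD2 libraries, of which replicate 1 stood far above the others, against 5.99, 7.10 and 6.38 TPM in labelled control libraries, and the fit to counts gave -0.32 ± 0.15 (adjusted p = 0.158).

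Since TPM is corrected for length, the share of paired genes in their summed TPM can be compared. HK1 made up 53.99% ± 0.686 of hexokinase transcripts in DCBLD2-exposed and 46.95% ± 0.2425 in control-exposed THP-1 (SD, n = 3 each), and 68.6% ± 3.14 in labelled DCBLD2 against 75.45% ± 2.305 in labelled control H1299. LDHA made up 53.4% ± 0.724 of LDHA and LDHB in DCBLD2-exposed and 46.55% ± 0.765 in control-exposed THP-1, and 32.9% ± 1.62 in labelled DCBLD2 against 37.02% ± 3.14 in labelled control H1299, where the groups overlapped. In both pairs the mean share was higher in DCBLD2-exposed THP-1 and lower in labelled DCBLD2 H1299. The P4HA1 share of the P4HA pair was 60.6% ± 1.99 in DCBLD2-exposed and 44.5% ± 1.18 in control-exposed THP-1, the widest gap of the 11 sets in that line. MCT1 (SLC16A1) made up 5.53% ± 0.322 of the lactate carriers in DCBLD2-exposed and 9.37% ± 0.251 in control-exposed THP-1, and 19.1% ± 2.08 in labelled DCBLD2 against 14.8% ± 2.12 in labelled control H1299. With 3 libraries a side an exact two-sided permutation test cannot go below p = 0.1, the value reached by all sets named here except the LDHA share in H1299 (exact p = 0.2). Over the 22 shares, 11 in each line, the smallest adjusted p is 0.129, so no share can be called at this size.

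**Figure D3:**
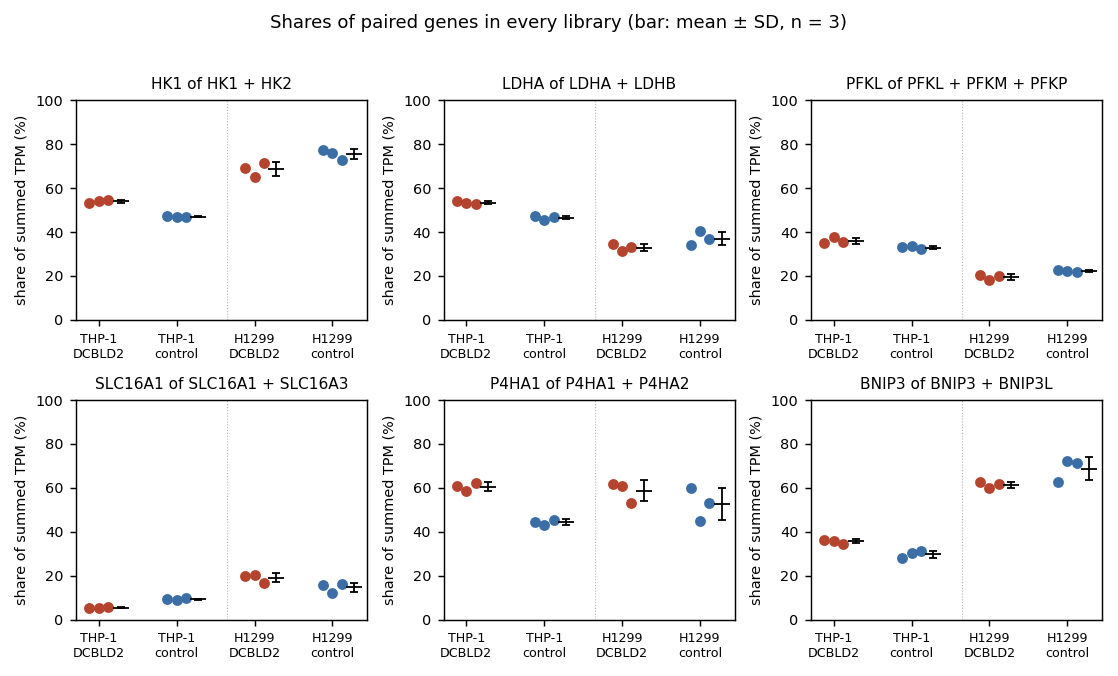
Share of 1 gene in the summed TPM of its set (y axis, percent) in every library of the 4 groups (x axis); points are libraries and the bar beside them is the mean ± SD of 3. In THP-1 the HK1, LDHA and P4HA1 shares of DCBLD2-exposed libraries all lie above those of control-exposed libraries.

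The cell lines also differed in the members they used. Between control-exposed THP-1 and labelled control H1299, 23 of 36 members were higher in THP-1 (63.9%) and 10 lower (27.8%), where 42.3% and 43.6% of all genes were. PMA, the exposure to H1299 and the cell line cannot be told apart in this comparison. Scaling by library size alone put the median log2 difference of all genes at -0.46, in place of -0.025, and gave 18 members higher and 12 lower, with 4746 of all genes higher and 7699 lower in place of 6028 and 6214. GAPDH stood at 2184 ± 7.25 TPM in control-exposed THP-1 and 16862 ± 729 TPM in labelled control H1299 (SD, n = 3 each; log2 difference -2.68), and ENO1 at 937 ± 7.27 TPM in THP-1 and 4545 ± 377 TPM in H1299 (-2.02). The regulators went the other way, with PFKFB4 at 90.4 ± 1.94 TPM in THP-1 and 9.15 ± 0.411 TPM in H1299 (3.63) and PFKFB3 at 47.6 ± 1.60 TPM in THP-1 and 8.44 ± 0.705 TPM in H1299 (2.61). Of the lower glycolysis members, GAPDH, ENO1, PGAM1 and PGK1 were lower in THP-1, PKM was higher, at 1812 ± 11.3 TPM in THP-1 and 1542 ± 67.3 TPM in H1299 (0.49, lost under library size scaling at 0.06, adjusted p = 0.336), and ENO2 was not called. Between DCBLD2-exposed THP-1 and labelled DCBLD2 H1299, PGK1 (-0.14, adjusted p = 0.119) and PGAM1 (-0.21, adjusted p = 0.066) were not called. Of the isoenzymes, PFKM had 1.39 ± 0.491 TPM in THP-1 and 115 ± 9.90 TPM in H1299 (-6.32), and ALDOC 31.6 ± 1.29 TPM in THP-1 and 0.688 ± 0.210 TPM in H1299 (6.11). NDRG1 showed a wide gap, at 352 ± 8.51 TPM in THP-1 and 6.49 ± 0.562 TPM in H1299 (6.16), and P4HA2 (2.12) and HIF1A (0.95) were higher in THP-1 too. EGLN3 (3.96) and ALDOC were too low to test within H1299 and passed the joint filter through THP-1; their differences rest on 182 summed reads in control-exposed THP-1 and 15 in labelled control H1299 for EGLN3, and on 1759 in control-exposed THP-1 and 33 in labelled control H1299 for ALDOC. LDHB (-1.82) and LDHA (-1.24) were lower in THP-1. The carriers differed less, with SLC16A3 at 0.69 and SLC2A1 at 0.44, and the SLC2A1 difference was lost under library size scaling (0.01, adjusted p = 0.834). Apart from ENO2, the adjusted p-values of the genes named here were at most 0.000890 between the control groups in the full fit, by edgeR's quasi-likelihood test.

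**Figure D4:**
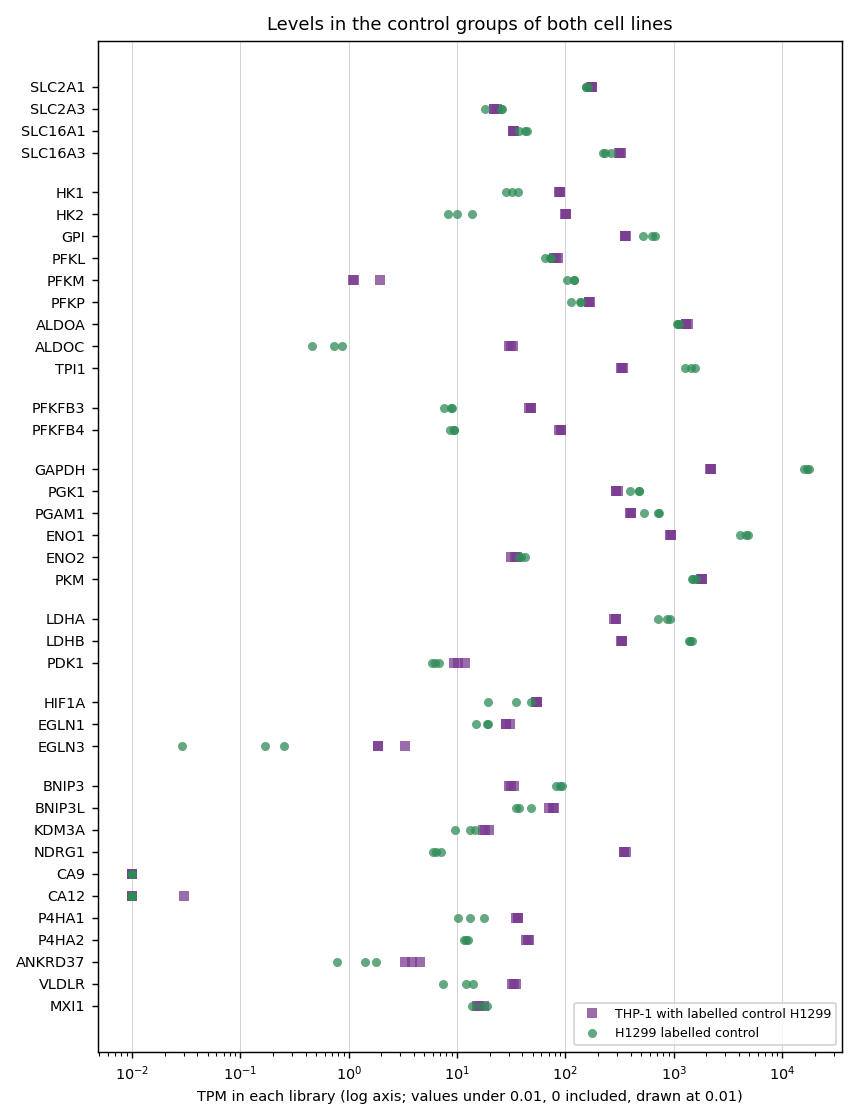
TPM in each library (x axis, log scale) of every member (y axis, in role groups) in control-exposed THP-1 (squares) and labelled control H1299 (circles); values under 0.01, zeros included, are drawn at 0.01. PFKM and GAPDH lie well to the left in THP-1, and PFKFB3, PFKFB4 and NDRG1 to the right.

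Genes of the pathways around the members also split in THP-1. Of 34 other HIF-1 targets tested, 10 were higher and 18 lower in DCBLD2-exposed cells; of all genes, 34.5% were higher and 33.6% lower, against which this and the following THP-1 counts are to be read. The transcription factor BHLHE40 fell (-1.54), and MIF, a cytokine, rose (0.94). Of 13 HIF pathway regulators, 3 were higher and 9 lower: VHL (-0.45), which hands hydroxylated HIF-1 alpha to degradation, and ARNT (-0.45), the partner subunit of HIF1A, fell, while RACK1 rose (0.28). Of 16 genes of mitochondrial pyruvate entry, 7 were higher and 8 lower, with PCK2 up (1.17) and the pyruvate dehydrogenase phosphatase subunits PDP2 (-1.09) and PDP1 (-0.45) down. Of 8 pentose phosphate genes, 4 rose, PGLS with 0.74, and 3 fell, among them PGD (-0.30). Of 14 other glycolytic isoenzymes and carriers, 2 rose, SLC2A6 (0.63) and SLC16A7 (0.86), and 6 fell, among them BSG (-0.18), the chaperone of the lactate carriers. With the dispersion of H1299 the THP-1 calls of RACK1 (adjusted p = 0.155), PGD (0.133) and BSG (0.403) were lost. That of SLC16A7 was lost with limma on log2(TPM + 1) (0.238). In H1299 the other HIF-1 targets were 6 higher and 0 lower of 33, where 10.3% of all genes were higher and 10.6% lower, with ADM (0.61) and ANKZF1 (0.49) among them. Among the 12 HIF regulators tested there, HSP90AA1 (1.335) and ARNT (0.41) rose and EGLN2 (-0.44) fell. The 17 pyruvate entry genes were 3 higher and 3 lower, among them ME2 (0.40), PDK2 (-0.54) and PDP1 (-0.64), and the 10 other isoenzymes 0 higher and 2 lower, SLC2A6 (-1.57) and ADPGK (-0.34). All 7 tested pentose phosphate genes missed the threshold in H1299. Without labelled DCBLD2 replicate 2 the H1299 calls of ADM, ANKZF1, ARNT, EGLN2, ME2, PDK2, PDP1 and ADPGK missed the threshold (adjusted p = 0.0622 to 0.162), with log2 fold changes of 0.60 for ADM, 0.53 for ANKZF1, 0.30 for ARNT, -0.38 for EGLN2, 0.39 for ME2, -0.49 for PDK2, -0.68 for PDP1 and -0.33 for ADPGK.

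Counting sets limits on single values. Of the 38 members, 25 overlap an annotated gene on the opposite strand, and 16 have named pseudogenes, with 62 for GAPDH. How strand was handled is not given in the sources used here; reads from both genes of such a locus cannot be told apart, and the values of GAPDH, BNIP3 and PGAM1 in particular are uncertain.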

How the data were processed

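Trizol RNA was enriched for mRNA and prepared with the NEBNext Ultra kit, per the labels' protocols. The submitters' processing notes name RSEM, HISAT2, StringTie (1.3.1), Bowtie2 (2.2.8), fastp (0.18.0) and the hg38 build; neither annotation release nor strand setting is given in the sources used here. The authors deposited estimated counts per gene, not normalized, and TPM values. After rounding to whole numbers, the estimated counts were tested with edgeR 4.0.16 (quasi-likelihood test, TMM scaling, filterByExpr minimum of 10 counts, R 4.3.3), in 1 fit per cell line, and with all 12 libraries for the difference of responses and the comparison of cell lines. Benjamini-Hochberg adjustment ran over all genes tested, and calls were made at an adjusted p under 0.05. Fold changes run labelled DCBLD2 over labelled control, and THP-1 over H1299 between lines.

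The members, the gene lists and the tests were chosen with earlier results of these data known. Values in every library are given for members called in H1299, for up to 3 members per role group with the largest change in THP-1, for up to 2 per role group with the smallest p for the difference of responses, and of each wider list for up to 3 genes with the smallest p in a cell line as fold changes. Some genes that this rule names are left out of the text. A carbonic anhydrase pair was left out of the shares, since its summed TPM was under 1. The fits were tested on simulated counts with known changes in a small part of the genes. For the joint fit, both simulated lines had the same dispersion trend, unlike the data. That run therefore does not cover the unequal spread of the lines. Positions are from GENCODE release 29 on GRCh38.

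Alternatives were DESeq2 1.42.0, its size factors, upper-quartile scaling, library size alone, robust spread, no low-count filter, a filter on a mean of 10 counts, all 12 libraries in 1 fit, limma 3.58.1 on log2(TPM + 1), voom weights by cell line, the common dispersion of H1299 in THP-1, a fold change of at least 1.5, the replicate number as a block, and each library left out.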

Additional observations from a re-analysis of the deposited data

Results flagged for a closer look

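The response of 18 members differed between the cell lines by the interaction test of edgeR (adjusted p under 0.05 over 14244 genes), given here as the log2 response of THP-1 minus that of H1299. The difference was negative for SLC2A3 (-1.26), SLC16A1 (-0.59), HK2 (-1.10), PFKFB3 (-0.49), PDK1 (-0.56), KDM3A (-0.95), P4HA1 (-0.76), P4HA2 (-1.22) and MXI1 (-1.31). It was positive for SLC2A1 (0.22), SLC16A3 (0.68), ALDOA (0.45), ALDOC (1.09), TPI1 (0.75), GAPDH (0.65), PKM (0.53), LDHA (0.47) and BNIP3 (0.47). The SLC2A1 call was lost under 6 alternatives, with the replicate block (adjusted p = 0.116) and without 5 of the THP-1 libraries in turn (0.0671 to 0.0914). ALDOC did not pass the filter within H1299 and entered this test through its reads in THP-1. It had few reads in H1299, with 0.646, 0.428 and 0.109 TPM in labelled DCBLD2 and 0.867, 0.740 and 0.456 TPM in labelled control libraries, and the ALDOC call was lost under 12 alternatives. What the 2 lines were given differs, since H1299 carried the label and THP-1 was exposed to H1299, so a difference between cell lines and one between the kinds of treatment cannot be told apart.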

How the results depend on the processing

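In H1299, 0 to 10 members were called when 1 library was left out (6 in the full fit), and 15 with all 12 libraries in 1 fit; over all genes these counts were 514 to 3158 (2669 in the full fit) and 5056, and 1513 genes changed at least 1.5-fold. In THP-1, leaving out 1 library gave 27 to 29 members; 14 were called with the common dispersion of H1299 and 5 with a fold change of at least 1.5, and over all genes 4531 and 2781. Leaving aside the fold change of at least 1.5, 13 of the 29 calls in THP-1 were kept under every alternative. So were 14 of the 18 differences of responses and 0 of the 6 calls in H1299. Same-numbered libraries did not deviate together (correlations of -0.12 to -0.28 in H1299 and 0.03 to 0.06 in THP-1), so these values show no pairing by number. Deviations were taken from each group's mean, so the correlations of a library with the other group are tied, and negative ones come with positive ones. In H1299 the positive ones were labelled control 1 with labelled DCBLD2 2 (0.286), 2 with 3 (0.36) and 3 with 1 (0.257). That matching was read from these same values, so they cannot test it. No fit used that matching. With the number as a replicate block, 7 members were called in H1299 (5 higher, 2 lower) and 981 genes higher and 816 lower in all. The same block gave 29 members in THP-1, 15 for the difference of responses and 32 between the cell lines. Leaving out 1 library gave 16 to 23 differences of responses and 32 to 33 differences between the lines.

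Directions turned for ENO1 in THP-1 with library size alone (0.035, not called in the full fit), for PKM in THP-1 with limma (-0.0016), and for the EGLN1 share in THP-1, which ran from -0.18 to 1.56 percentage points with 1 library left out. Between the lines SLC2A3 turned with library size alone (-0.19), limma (-0.021) and the labelled DCBLD2 groups (-1.02), ENO2 with library size alone (-0.37) and limma (-0.22), and KDM3A (-0.12) and MXI1 (-1.13) with the labelled DCBLD2 groups. The cause was not tested. The shares left with 1 library out ran from -8.32 to -5.20 for HK1 in H1299, 6.82 to 7.44 for HK1 in THP-1, -5.65 to -2.52 for LDHA in H1299, 6.43 to 7.17 for LDHA in THP-1 and 15.1 to 17.1 for P4HA1 in THP-1. The common coefficient of variation was 1.96% in THP-1 and 13.3% in H1299; the effect of depth was not tested.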
